A study of Mus musculus with 8 samples.

Results

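The ubiquitin and proteasome genes described here are 28 protein-coding genes of mouse kidney, chosen by name from the 1931 genes analysed: proteasome genes (Psma to Psmg), ubiquitin-conjugating enzymes (Ube2), ubiquitin ligases (Ube3 and Ube4, the F-box genes Fbxl, Fbxo and Fbxw, Trim, Rnf, Herc and Cul) and deubiquitinases (Usp and Otud). Of the 28, 2 are proteasome genes, 3 conjugating enzymes, 20 ligases or ligase subunits and 3 deubiquitinases, and no Cul or Otud gene was among them. The GENCODE M21 annotation holds 399 protein-coding genes with such names, so that 7.02% of them were among the genes analysed, against 7.59% of all 21924 protein-coding gene names. The share was 4% of 50 names for proteasome genes, 8.11% of 37 for conjugating enzymes, 8.06% of 248 for ligases and 4.69% of 64 for deubiquitinases.

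Kidney RNA of MRL-lpr mice was sequenced in 4 libraries from mice given propionate (PA), a short-chain fatty acid of gut bacteria, at 200 mM in their drinking water for 6 weeks, and in 4 libraries from control mice, all at 12 weeks of age. Mice of both groups carry the lpr mutation of the death receptor gene Fas and develop lupus-like disease, so no healthy strain enters the comparison. The labels do not state the sex, litter or cage of the mice, nor what the control drinking water contained, nor that each library came from a separate mouse, so the p-values measure only the spread between these 8 libraries. Whole kidney was used, and fewer cells of a type and less RNA per cell cannot be told apart.

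Each library held 20005328 to 26711127 assigned reads. The genes analysed are those with an unadjusted p of at most 0.05 in the authors' deposited table, 983 higher and 948 lower with propionate. Every member therefore differed between these libraries by selection, and the other genes with such names are not analysed here. The authors' adjusted p-values cover 16064 genes, of which 0.977% (157 genes) passed 0.05, 8.13% of the genes analysed. Levels below are scaled counts, read counts divided by 1 size factor per library, and fold changes are propionate over control from edgeR's quasi-likelihood fit with the same size factors. "Rose" and "fell" are used only of genes past an adjusted p of 0.05 by the authors' deposited table.

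Ubiquitin is passed from an activating enzyme to a conjugating enzyme (E2) and from there to a target protein chosen by a ligase (E3). Chains of ubiquitin mark many targets for the proteasome, a barrel of proteolytic subunits capped by a regulatory particle that unfolds the target, while deubiquitinases take ubiquitin off again. In the kidney tubule this system sets the turnover of transporters and channels, and in immune cells it tunes interferon and NF-kB signalling.

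With propionate, 3 members, all RING or F-box genes, passed the authors' adjustment over all genes. Rnf183 and Fbxo21 rose and Rnf24 fell. Of the genes analysed 2.8% passed and were higher, and 5.33% passed and were lower. The other 25 members had adjusted p-values between 0.078 and 0.437 by the authors' deposited table. By edgeR no member passed an adjustment over 16064 genes, and neither did any other gene analysed, although 27 members had an unadjusted p under 0.05, as did 94.3% of all genes tested. DESeq2 run on the same counts and adjusted over 16064 genes passed these 3 members, beside 9.6% of all genes tested. The submitters' notes also name DESeq2, and the same size factors were used, so this is close to a repeat of the authors' test. Adjusted over the genes analysed alone, DESeq2 passed 27 members, beside 96.9%.

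The 2 proteasome promoters are shown because both genes were higher with propionate, together with 2 RING gene promoters, 1 gene lower and 1 higher, in which both motifs searched were found. Each line runs from 250 bases before to 50 after the transcription start given by RefSeq on GRCm38.p6, read along the gene's own strand. They lie at chr7:29180624-29180923 for Psmd8 (minus strand), chr16:95990911-95991210 for Psmg1 (minus), chr6:72362383-72362682 for Rnf181 (minus) and chr7:127588448-127588747 for Rnf40 (plus). Capitals mark TGACNNNGC, the core bound by Nfe2l1 and Nfe2l2, transcription factors known to drive proteasome genes, and CCAAT, the box bound by NF-Y, on either strand.
Psmd8: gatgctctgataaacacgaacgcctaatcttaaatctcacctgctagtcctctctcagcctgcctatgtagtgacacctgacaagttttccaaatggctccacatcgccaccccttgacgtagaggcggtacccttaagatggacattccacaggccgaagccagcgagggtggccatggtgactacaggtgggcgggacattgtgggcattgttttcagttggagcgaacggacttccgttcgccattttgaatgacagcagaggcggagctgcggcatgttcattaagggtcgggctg
Psmg1: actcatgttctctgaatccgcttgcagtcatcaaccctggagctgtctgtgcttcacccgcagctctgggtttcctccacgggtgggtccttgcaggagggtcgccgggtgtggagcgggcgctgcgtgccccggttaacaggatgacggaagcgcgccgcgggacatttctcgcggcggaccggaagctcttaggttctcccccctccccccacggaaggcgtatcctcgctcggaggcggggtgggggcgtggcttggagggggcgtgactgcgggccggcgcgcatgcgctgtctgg
Rnf181: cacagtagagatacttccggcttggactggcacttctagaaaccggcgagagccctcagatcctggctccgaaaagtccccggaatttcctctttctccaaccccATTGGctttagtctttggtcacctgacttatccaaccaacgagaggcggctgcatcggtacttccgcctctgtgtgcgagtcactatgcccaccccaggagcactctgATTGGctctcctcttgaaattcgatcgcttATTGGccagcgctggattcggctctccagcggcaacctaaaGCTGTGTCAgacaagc
Rnf40: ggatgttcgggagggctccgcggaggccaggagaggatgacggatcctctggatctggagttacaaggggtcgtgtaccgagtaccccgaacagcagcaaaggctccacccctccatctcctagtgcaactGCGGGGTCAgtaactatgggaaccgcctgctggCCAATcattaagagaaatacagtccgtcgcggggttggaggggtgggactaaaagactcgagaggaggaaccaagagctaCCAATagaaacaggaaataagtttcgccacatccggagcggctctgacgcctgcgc

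Neither motif was found in the Psmd8 or Psmg1 window. RefSeq windows were matched for 25 of the 28 members, 36 windows in all. TGACNNNGC stood in 13.9% of them, against 12.4% of all 32851 mouse windows, and in the genes Fbxo31, Herc2, Rnf181, Rnf40 and Trim2. CCAAT stood in 19.4% of member windows, against 37.4% of all windows. The 2 RING genes with both motifs in 1 window differed in direction, Rnf181 lower and Rnf40 higher with propionate.

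Rnf183 encodes a membrane-anchored RING ligase that in mice is known for its expression in the renal collecting duct. It had 1010, 732, 868 and 982 scaled counts in the propionate libraries, against 547, 690, 558 and 677 in the control libraries. The groups did not overlap: the lowest propionate library stood above the highest control library. Rnf183 averaged 898 ± 127 with propionate and 618 ± 75.9 in controls (SD, n = 4 each), 45.4% higher, a log2 fold change of 0.54 ± 0.12 (SE). Its adjusted p was 0.00727 by the authors' deposited table and 0.209 by edgeR over 16064 genes. Per gene length its level was 24.0 ± 3.18 FPKM with propionate and 16.6 ± 2.18 FPKM in controls (SD, n = 4 each). None of the 3 collecting duct markers looked up (Aqp2, Scnn1g, Atp6v1g3) is among the genes analysed, so their part in the result was not tested. In the table Rnf183 lies on chromosome 4 from 62345777 to 62353489, on coordinates whose build the sources used here do not give.

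Fbxo21 encodes an F-box protein, the part of an SCF ligase that recognises the target. It had 1479, 1742, 1445 and 1475 scaled counts in the propionate libraries and 1169, 1346, 1175 and 1228 in the control libraries. Propionate replicate 2 stood above the other 3 propionate libraries, and all 4 stood above every control. Its means were 1535 ± 139 with propionate and 1230 ± 81.8 in controls (SD, n = 4 each), 24.8% higher, a log2 fold change (with SE) of 0.32 ± 0.08 and an adjusted p of 0.0395 by the authors' deposited table. By edgeR over the genes analysed its adjusted p was 0.0263, and its fold change on that scale was 0.25 once propionate replicate 2 was left out. The gene lies on chromosome 5 from 118114795 to 118148266 in the table.

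Rnf24 encodes a membrane RING-finger protein. It had 757, 467, 804 and 907 scaled counts in the propionate libraries, against 889, 1371, 1451 and 1527 in the control libraries. Control replicate 1 lay among the propionate libraries, so the groups overlapped. Rnf24 fell by 43.9% with propionate, to 734 ± 189, against 1309 ± 288 in controls (SD, n = 4 each), a log2 fold change of -0.83 ± 0.21 (SE). Its adjusted p was 0.00778 by the authors' deposited table. In the table it lies on chromosome 2 from 131139984 to 131194812. In GENCODE M21, 16.5% of its exonic bases overlap Pank2 on the opposite strand, and the sources used here do not say whether counting used strand.

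**Figure D1:**
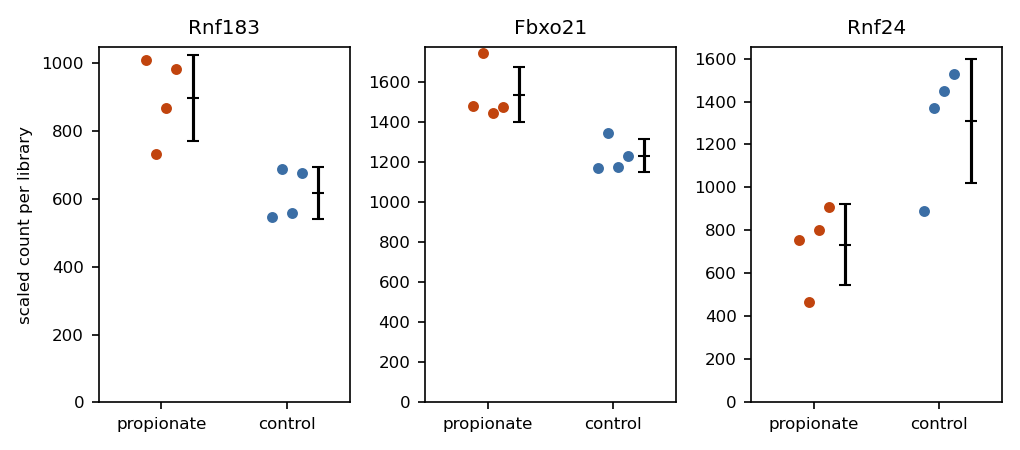
Scaled counts per library of Rnf183, Fbxo21 and Rnf24, with propionate libraries left of control libraries and the mean and SD of each group beside the points. The groups are apart for Rnf183 and Fbxo21, while control replicate 1 of Rnf24, at 889, lies among its propionate libraries.

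These 3 calls also passed edgeR over the genes analysed, at adjusted p-values of 0.0233 for Rnf183, 0.0263 for Fbxo21 and 0.0272 for Rnf24. That test is a weak one here, since 90.2% of the 1792 genes tested passed it after their selection on the same libraries. Without control replicate 3 none of the 3 passed (adjusted p = 0.0557 for Rnf183, 0.0645 for Fbxo21 and 0.0645 for Rnf24, by edgeR). The edgeR call of Fbxo21 also ended without control replicate 4 (adjusted p = 0.0508). That of Rnf24 ended without propionate replicate 3 and without control replicates 2 and 4 (adjusted p = 0.0501, 0.0507 and 0.0509 by edgeR).

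Proteasome genes were represented by an assembly factor and a regulatory subunit, both higher with propionate and neither past the authors' adjustment. Psmd8, a subunit of the lid of the regulatory particle, had 2455, 2316, 2325 and 2725 scaled counts in the propionate libraries, against 2187, 2203, 2310 and 2190 in the control libraries. The groups did not overlap, though propionate replicate 2 and control replicate 3 lay close together. The log2 fold change of Psmd8 was 0.14 ± 0.06 (SE), and 0.09 when propionate replicate 4 was left out. Its adjusted p with all 8 libraries was 0.437 by the authors' deposited table. Psmg1, a chaperone that helps to build the ring of alpha subunits, had 500, 499, 526 and 573 scaled counts in the propionate libraries, against 391, 481, 450 and 482 in the control libraries. Its groups did not overlap either, with a log2 fold change (with SE) of 0.22 ± 0.09 and an adjusted p of 0.4 by the authors' deposited table. The catalytic subunits, those of the immunoproteasome included (Psmb8, Psmb9 and Psmb10), are not analysed here.

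All 3 conjugating enzymes were higher with propionate in groups that did not overlap, as was so for 47.4% of all genes tested in either direction. None of the 3 passed the authors' adjustment. Ube2g2, the E2 of endoplasmic reticulum-associated degradation, had 548, 540, 590 and 735 scaled counts in the propionate libraries, against 497, 441, 505 and 503 in the control libraries. Its log2 fold change was 0.31 ± 0.11 (SE). Ube2s, which extends ubiquitin chains with the anaphase-promoting complex, had 794, 815, 902 and 1054 scaled counts with propionate, against 753, 761, 758 and 712 in controls. Ube2z, an E2 charged by the activating enzyme Uba6, had 2004, 1849, 1896 and 2206 scaled counts with propionate, against 1777, 1638, 1751 and 1697 in controls. Propionate replicate 4 was the highest library for all 3 genes, and without it the log2 fold change was 0.20 for Ube2g2 and 0.17 for Ube2s. Log2 fold changes were 0.26 ± 0.09 (SE) for Ube2s and 0.21 ± 0.07 for Ube2z, and the adjusted p-values of the 3 genes by the authors' deposited table were 0.246, 0.286 and 0.189 for Ube2g2, Ube2s and Ube2z.

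**Figure D2:**
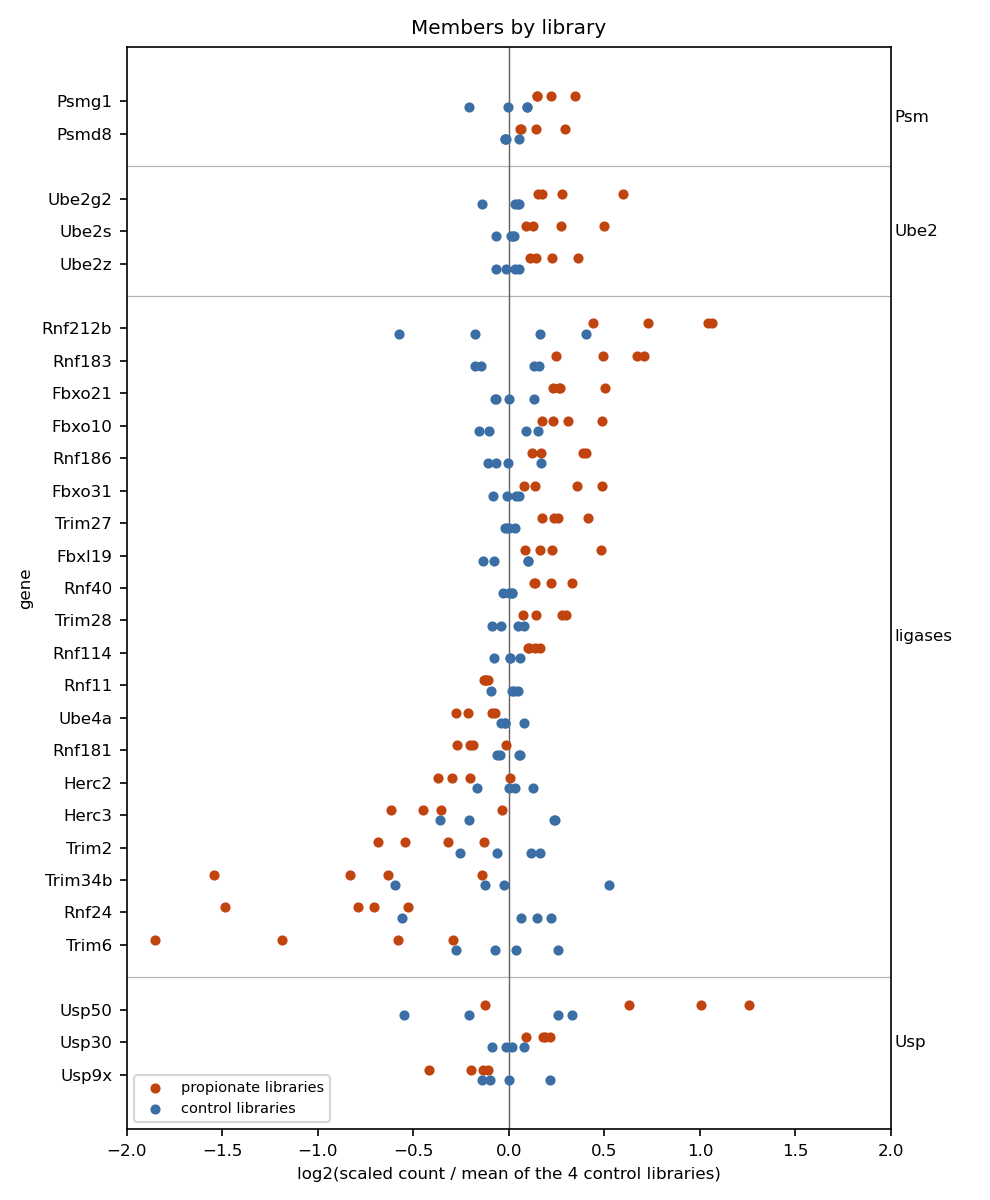
Each row is a member, and each point is 1 library's scaled count divided by the mean of the 4 control libraries, on a log2 scale, with propionate libraries above control libraries and genes grouped by class. The low-count genes Trim6, Trim34b, Usp50 and Rnf212b and the more abundant Rnf24 spread widest over the 8 libraries.

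All 4 F-box genes were higher with propionate. Besides Fbxo21, these were Fbxo10, a receptor known from human cells for targeting the survival factor BCL2, Fbxo31, known from human cells for targeting cyclin D after DNA damage, and Fbxl19, which binds CpG-rich DNA. Fbxo10 had 463, 481, 574 and 509 scaled counts with propionate, against 368, 455, 435 and 381 in controls. Fbxo31 had 495, 599, 514 and 657 with propionate, against 465, 442, 481 and 485 in controls. Groups did not overlap for these 2 genes, whose log2 fold changes were 0.31 ± 0.10 for Fbxo10 and 0.28 ± 0.10 for Fbxo31 (SE). Fbxl19 had 398, 416, 377 and 497 scaled counts with propionate, against 380, 323, 381 and 337 in controls, with overlapping groups and a log2 fold change of 0.25 ± 0.10 (SE). Without propionate replicate 4 that of Fbxl19 was 0.16, and its edgeR call over the genes analysed ended whichever of the 8 libraries was left out. Their adjusted p-values by the authors' deposited table were 0.224, 0.293 and 0.422 for Fbxo10, Fbxo31 and Fbxl19.

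The 5 Trim genes went both ways, 2 higher and 3 lower. Trim27, a nuclear and endosomal TRIM ligase, had 707, 749, 738 and 835 scaled counts with propionate, against 617, 641, 621 and 627 in controls. Its control libraries were close together, at 627 ± 10.5 (SD, n = 4), and its log2 fold change of 0.27 ± 0.07 (SE) came nearest to passing among the other 25 members (adjusted p = 0.078 by the authors' deposited table). Trim28, the corepressor of KRAB zinc finger proteins, had 2374, 2056, 2161 and 2404 scaled counts with propionate, against 2068, 1899, 2018 and 1839 in controls, a log2 fold change of 0.20 ± 0.07 (SE) with overlapping groups. Trim2, known from mouse neurons for ubiquitinating neurofilament light chain, had 1729, 1968, 1342 and 1480 scaled counts with propionate, against 1802, 2416, 2066 and 2334 in controls. Its log2 fold change was -0.40 ± 0.13 (SE), with overlapping groups and an adjusted p of 0.125 by the authors' deposited table.

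Trim6 and Trim34b, of the TRIM gene cluster on chromosome 7 that is known for antiviral functions, were both lower and both scarce. They lie 94319 bases apart in the table. Trim6 had 6.88, 16.6, 20.3 and 10.9 scaled counts with propionate, against 29.7, 20.5, 23.6 and 25.5 in controls, and the groups were separated by less than 1 scaled count. Trim34b had 55, 39.1, 34.1 and 20.8 with propionate, against 55.5, 40.1, 87.3 and 59.5 in controls, with overlapping groups. Log2 fold changes were -0.85 ± 0.34 for Trim6 and -0.70 ± 0.32 for Trim34b (SE), with adjusted p-values of 0.425 and 0.424 by the authors' deposited table. Trim34b has close copies in the same cluster, and the sources used here do not give how shared reads were counted. Trim34b, Herc2, Herc3 and Rnf114 are among the 28 members by family name. They lie outside the rule for which members are described singly, and were added to the description after their values were seen.

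Among the 8 Rnf genes, 5 were higher and 3 lower. Rnf40, which works with Rnf20 to attach ubiquitin to a histone, had 1165, 1238, 1164 and 1333 scaled counts with propionate, against 1063, 1072, 1071 and 1038 in controls. Rnf186, a membrane RING ligase known from gut epithelium, had 658, 791, 680 and 801 with propionate, against 578, 603, 561 and 679 in controls. The groups were apart for Rnf40 and overlapped for Rnf186, and the log2 fold changes were 0.21 ± 0.06 and 0.28 ± 0.09 (SE). Rnf114 had a log2 fold change of 0.13 ± 0.05 (SE) in groups that did not overlap. Rnf212b, of a gene family known for meiotic recombination, was scarce, with 35.4, 43.0, 54.4 and 53.5 scaled counts with propionate, against 23.0, 34.5, 17.5 and 29.2 in controls (log2 fold change 0.84 ± 0.27, SE).

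The lower Rnf genes besides Rnf24 were abundant. Rnf181 had the highest FPKM of all members, at 62.8 ± 5.64 with propionate and 70.5 ± 3.12 in controls (SD, n = 4 each). Its scaled counts were 4091, 4887, 4281 and 4331 with propionate, against 4717, 5127, 5109 and 4772 in controls, so the groups overlapped at propionate replicate 2. Rnf11, an adaptor of the complex that holds back NF-kB signalling, had 3201, 3247, 3226 and 3214 scaled counts with propionate, against 3621, 3563, 3543 and 3286 in controls. The propionate libraries of Rnf11 were close together, with an SD of 19.7 against 149 in controls. Log2 fold changes were -0.17 ± 0.07 for Rnf181 and -0.12 ± 0.05 for Rnf11 (SE), and neither passed the authors' adjustment (adjusted p = 0.349 and 0.356 by the authors' deposited table).

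The HECT-domain genes and the U-box gene were lower. Herc2, a giant HECT ligase of the DNA damage response, had 1111, 899, 962 and 855 scaled counts with propionate, against 1205, 984, 1129 and 1106 in controls. Herc3 had 884, 1102, 828 and 737 with propionate, against 881, 1331, 1335 and 978 in controls. Both had overlapping groups, with log2 fold changes of -0.21 ± 0.09 and -0.35 ± 0.16 (SE). Ube4a, a U-box ligase that lengthens ubiquitin chains, had 2043, 2021, 1857 and 1775 scaled counts with propionate, against 2119, 2090, 2273 and 2125 in controls, in groups that did not overlap (log2 fold change -0.16 ± 0.06, SE). None of the 3 passed the authors' adjustment.

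Deubiquitinases were higher in 2 of 3 members. Usp30, which sits on the outer mitochondrial membrane and is known to oppose Parkin, had 588, 632, 644 and 627 scaled counts with propionate, against 585, 560, 548 and 521 in controls (log2 fold change 0.17 ± 0.07, SE). Its groups were apart, by less than the spread within either. Usp50 was scarce, with 41.3, 24.5, 63.6 and 53.5 with propionate, against 18.2, 33.5, 31.8 and 23.1 in controls, in overlapping groups. Usp9x, an X-linked enzyme with many substrates, was lower, with 1961, 1923, 1847 and 1584 with propionate, against 2453, 1918, 2114 and 1979 in controls. The groups of Usp9x overlapped and its log2 fold change was -0.21 ± 0.09 (SE), and -0.13 without control replicate 1. The adjusted p-values of Usp30, Usp50 and Usp9x by the authors' deposited table were 0.419, 0.393 and 0.408.

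The 2 proteasome genes were higher and the ligases went both ways, with far fewer proteasome genes to go by. Genes with differences near 0 were left out by selection, so the medians say little about how alike the classes are. The median log2 fold change was 0.18 for the 2 proteasome genes, 0.26 for the 3 conjugating enzymes, 0.16 for the 20 ligases and 0.17 for the 3 deubiquitinases, beside 0.16 for all 1792 genes tested. The ligases split into 11 higher and 9 lower, from -0.85 to 0.84. Over all 28 members 18 were higher, 64.3%, against 53.2% of all genes tested, with a median of 0.20. Groups did not overlap in 17 members, beside 47.4% of all genes tested and 93.6% of the 157 genes past the authors' adjustment. Differences between the classes were not tested.

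**Figure D3:**
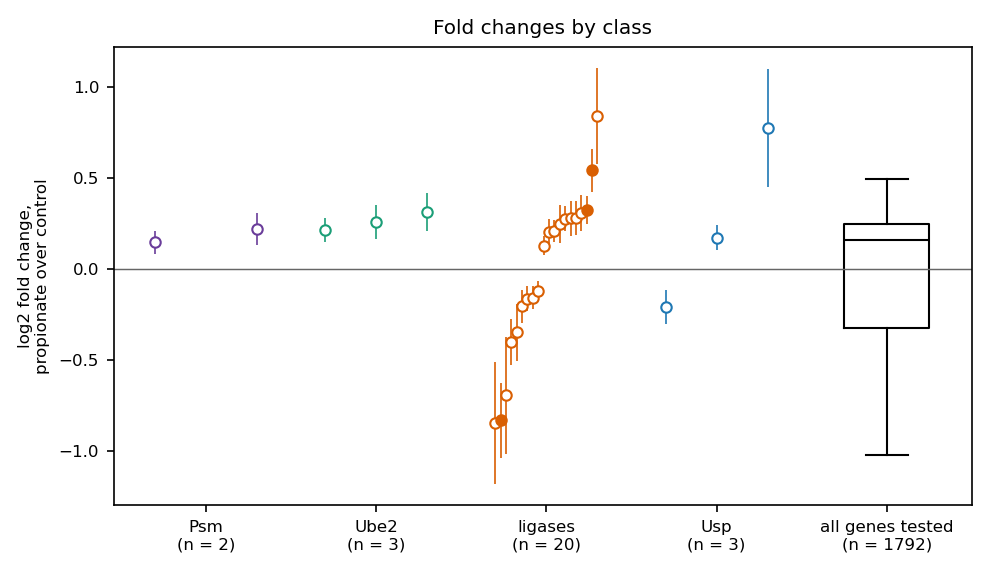
Log2 fold changes, propionate over control, of each member with its SE (n = 4 libraries per group), by class, beside a box of all 1792 genes tested (median, quartiles and whiskers at the 5th and 95th percentiles). Filled points are the 3 members past an adjusted p of 0.05 by the authors' deposited table, all ligases. The ligases lie on both sides of 0. Rnf11 (-0.12) and Rnf114 (0.13) lie closest to 0, and genes were listed by an unadjusted p of at most 0.05 and not by the size of the difference.

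By edgeR over the genes analysed, 24 of 28 members passed an adjusted p of 0.05, 17 higher and 7 lower. The shares over all genes tested were 90.2% in either direction, 48.2% higher and 42% lower, so the members' count is near that of the genes at large. Leaving out a propionate library gave 19 members without replicate 1 (beside 76.8% of all genes tested), 18 without replicate 2 (63.7%), 2 without replicate 3 (7.02%) and 4 without replicate 4 (8.54%). Leaving out a control library gave 8 members without replicate 1 (beside 30.3%), 2 without replicate 2 (9.99%), 0 without replicate 3 (1.66%) and 1 without replicate 4 (8.62%). The count over all genes thus dropped along with that of the members. With TMM scaling 17 members passed, 11 higher and 6 lower, beside 67.9% of all genes tested, and the share of higher among all calls was 38.2%, against 53.4% with the authors' size factors.

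Member genes that were lower were longer and poorer in GC than those that were higher. The 10 lower members had a median gene length of 7720 bases and a median GC of 45.4%, and the 18 higher members 4078 bases and 54.6%. All 5 members over 8000 bases (Herc2, Herc3, Trim2, Ube4a and Usp9x) were lower, and only 16.4% of the 311 genes tested over that length were higher. All 7 members over 55% GC were higher, as were 83.0% of the 482 genes tested above it. Spearman's rank correlation with the log2 fold change was -0.46 for gene length and 0.44 for GC over the 28 members. Over all genes tested these were -0.37 for length (1792 genes) and 0.42 for GC (the 1783 genes with a GC value). These points share the same 8 libraries, and genes are not independent replicates. The proteasome genes are short, with a median of 2200 bases, against 4792 for the ligases and 3988 for all genes tested.

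**Figure D4:**
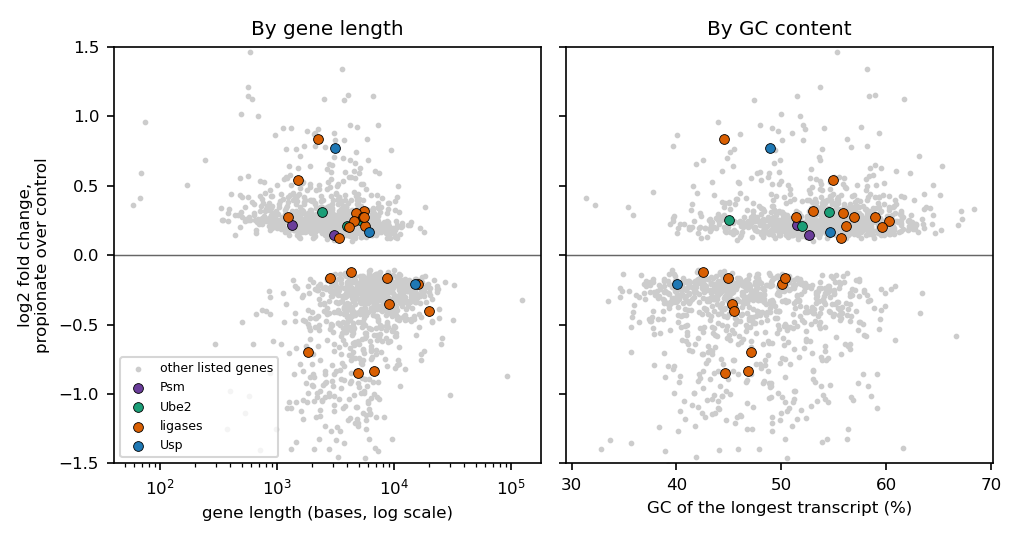
Log2 fold change, propionate over control, of the members (coloured by class) and of the other listed genes (grey), against gene length on a log axis and against the GC of the longest transcript; grey genes beyond the vertical limits are not drawn. Members over 8000 bases lie below 0 and members over 55% GC lie above it, and the grey genes lean the same way.

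A trend on length and GC was fitted to each library over the genes analysed and taken out. All of these genes had been selected for a difference between the same libraries. The trend can therefore hold more than an effect of length and GC, and its removal can take out too much. Most members then had smaller differences, and 4 changed direction. The median of all genes tested moved by -0.13 to 0.02, and beside it the medians were 0.08 for proteasome genes, 0.18 for conjugating enzymes, 0.03 for ligases and 0.16 for deubiquitinases. Usp9x changed to 0.16, Ube4a to 0.10, Rnf11 to 0.14 and Rnf114 to -0.03. Rnf183 had a log2 fold change of 0.33 and Rnf24 of -0.64, and their edgeR calls ended (adjusted p = 0.0522 and 0.057 over the genes analysed). The calls that held were those of Fbxo21 (0.28), Trim27 (0.28), Ube2s (0.49) and Rnf212b (0.998), 4 of 28 members, beside 24% of those 1783 genes. With the length trend alone removed 13 members passed, beside 37.2%. Ube2s was further from 0 than before, a move of over 1.5 times.

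**Figure D5:**
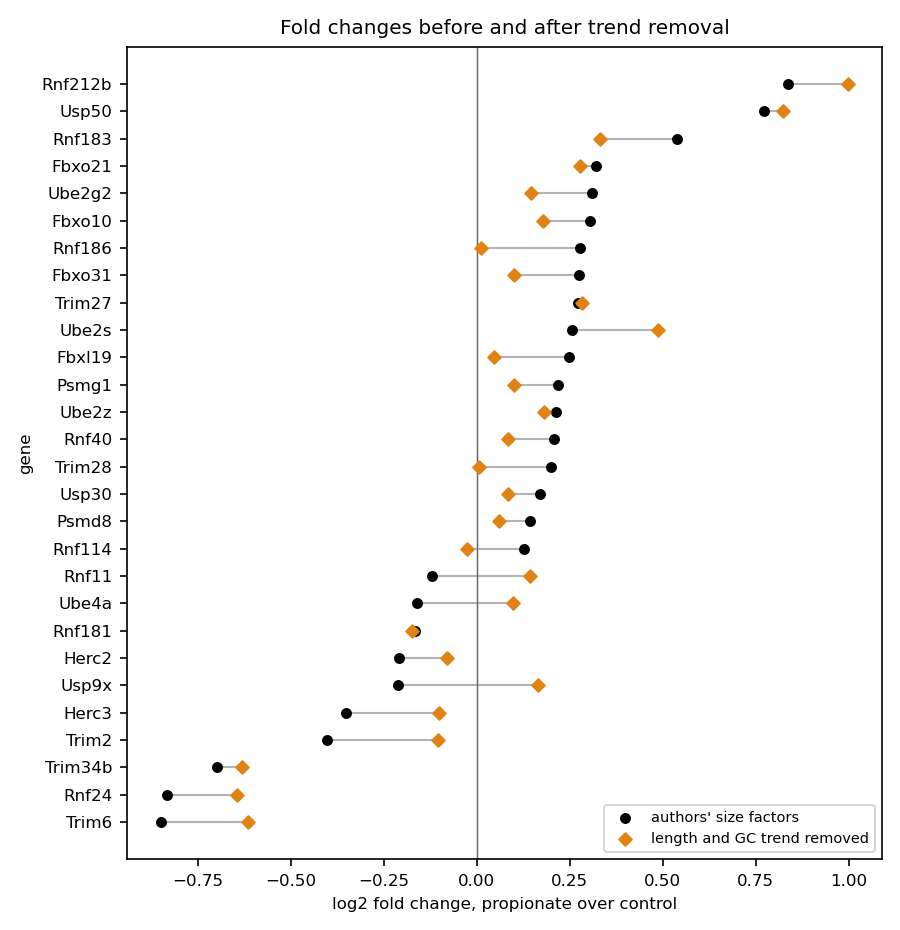
Log2 fold change, propionate over control, of each member with the authors' size factors (black circles) and after a gene length and GC trend was taken out of each library (orange diamonds). Most diamonds lie nearer to 0 than the circles. Usp9x, Ube4a, Rnf11 and Rnf114 lie on the other side of 0. On the same side, Ube2s and Rnf212b lie further out, as do Usp50, Trim27 and Rnf181 by small moves.

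A single library often set the extremes. Propionate replicate 4 was the highest of 8 libraries in 11 of the 18 higher members (61.1%), beside 69.2% of the 954 higher genes tested. It was the lowest in 5 of the 10 lower members (50%), beside 45% of the 838 lower genes tested. Among the 3 conjugating enzymes the median log2 fold change was 0.17 without propionate replicate 4 and 0.26 with it, a move of over 1.5 times. Levels per gene length spanned from Trim6, at 0.114 ± 0.0499 FPKM with propionate and 0.207 ± 0.0316 FPKM in controls (SD, n = 4 each), to Rnf181. Of the 28 members, 9 exceeded 10 FPKM in every library and 3 stayed under 1 FPKM in every library.

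Other genes of the pathway were looked up from a list of 119 symbols, of which 14 are among the genes analysed, 6 higher and 8 lower with a median log2 fold change of -0.15. Wwp1 and Znrf2 fell, by the authors' deposited table. Wwp1, a HECT ligase of the Nedd4 family, had 1969, 1841, 1915 and 1782 scaled counts with propionate, against 2105, 2252, 2223 and 2227 in controls (log2 fold change -0.23 ± 0.06, SE, with an adjusted p of 0.0308 by the authors' deposited table). Znrf2, a membrane-associated RING ligase, had 2462, 2344, 2369 and 2403 with propionate, against 2661, 2893, 2740 and 2849 in controls (-0.22 ± 0.05, SE, adjusted p = 0.02 by the authors' deposited table). The groups were apart for both. With the length and GC trend of the selected genes removed, a step that can take out too much, their log2 fold changes were 0.09 for Wwp1 and 0.03 for Znrf2. Cdc27, a subunit of the anaphase-promoting complex, had a log2 fold change of -0.32 ± 0.09 (SE), the ligase Pja1 0.17 ± 0.05, the p53 regulator Mdm4 -0.44 ± 0.14 and the ligase Pja2 -0.16 ± 0.06, none of them past the authors' adjustment.

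Of 44 marker genes looked up, 10 are among the genes analysed. Of 5 proximal tubule markers 4 were present, 2 higher and 2 lower. Their log2 fold changes were 0.18 for Slc34a1, 0.35 for Slc5a2, -0.18 for Lrp2 and -0.19 for Slc22a6. Summed scaled counts of these 4, which do not show this split, were 133584 to 148252 with propionate and 132573 to 150703 in controls. Pvalb, 1 of 2 distal convoluted tubule markers, had 1726 to 2053 with propionate and 1518 to 1770 in controls. None of the markers looked up for loop of Henle, collecting duct, podocytes, endothelium, T cells, and B and plasma cells is among them. Genes of these cell types outside the lists were not looked up. Cd68, 1 of 4 macrophage markers, had 97.8 to 242 scaled counts with propionate and 164 to 365 in controls. Macrophage genes outside this list were not looked up, so Cd68 alone does not describe these cells. Stat2 was the 1 of 9 interferon response genes, with 430 to 674 with propionate and 594 to 741 in controls. Of 5 immediate early genes 3 were present, all lower, with summed counts of 696 to 931 with propionate and 883 to 1140 in controls. Most of that sum is Jun, with means of 697 with propionate and 822 in controls. Fos averaged 28.5 ± 11.4 with propionate and 61.9 ± 16.2 in controls (SD, n = 4 each), in groups that did not overlap. The log2 fold change of Fos was -1.12 ± 0.31 (SE), with an adjusted p of 0.0743 by the authors' deposited table. Groups overlapped for Jun and Egr1. The part of these genes in the members' differences was not tested.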

How the data were processed

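Kidney RNA in 8 libraries was compared, 4 of mice given propionate and 4 of controls, grouped by the treatment label. RNA was purified on columns and sequenced as paired reads of 150 bases, per the labels' protocols. The authors deposited 1 table of whole-number read counts per gene, with a scaled signal (counts divided by 1 size factor per library), group means of it, FPKM, a log2 fold change, a p-value and its adjusted value, per the file headers. The submitters' processing notes name DESeq2 and mm10; the aligner, the counter and strandedness are absent from the sources used here. Table coordinates differ from GENCODE M21 (GRCm38) for most genes: 44 of 1913 shared identifiers have the same start and end.

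An adjustment over 16064 genes returns the authors' adjusted values from their unadjusted ones. The main test was edgeR 4.0.16 (R 4.3.3), quasi-likelihood, with the authors' size factors, the default expression filter and Benjamini-Hochberg adjustment over the 1792 genes tested, with n = 4 per group and no covariate. Dispersions came from genes selected for a difference on these libraries, so passing says little. TMM on such genes was kept as an alternative, and the length and GC trends were fitted on such genes too. Other alternatives were total-count scaling, no filter, DESeq2 1.42.0, a replicate block, an adjustment over 16064 genes, leaving out each library, and trends on gene length and GC (natural splines per library, GC of the longest GENCODE M21 transcript). The edgeR step was tested on simulated data. No per-library column was left unmapped. Replicate libraries of a group differed by more than sampling noise in every pair.

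The members and lists were chosen with earlier results of these data known. Named genes were every proteasome gene, up to 4 per family and direction past edgeR over the table, and members past the authors' adjustment; this gave 24 of 28, and the other 4 were added. The list of other pathway genes gave up to 6.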

Additional observations from a re-analysis of the deposited data

Results flagged for a closer look

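In 3 of 56 groups of 4 libraries (28 members in each of the 2 groups) 1 library stood apart from the other 3, where chance gives about 2.8. Fbxo21 had 1742 scaled counts in propionate replicate 2, against 1445 to 1479 in the other propionate libraries. Psmd8 had 2310 scaled counts in control replicate 3, against 2187 to 2203 in the other control libraries. Ube2g2 had 440.7 scaled counts in control replicate 2, against 497.1 to 505.3 in the other control libraries.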

How the results depend on the processing

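Members higher and lower by edgeR over the genes analysed numbered 17 and 7, with 90.2% of all genes tested called. With TMM the count of higher members was 11 (67.9% of all genes called). With the length trend removed there were 11 higher and 2 lower (37.2%), with the length and GC trend removed 4 and 0 (24%), and adjusted over 16064 genes 0 and 0 (0%). Leaving out 1 library gave 0 to 13 higher and 0 to 6 lower members, with 1.66% to 76.8% of all genes called. The 3 members past the authors' adjustment became 0 by edgeR and 3 by DESeq2, the tool that the submitters' notes name, both adjusted over 16064 genes. With the length and GC trend removed and the same adjustment over 16064 genes, edgeR passed 0 members. DESeq2 and the trend removal under this adjustment were added after the data were seen. The median log2 fold change of proteasome genes was 0.18, and 0.0719 with the length trend removed and 0.0808 with length and GC removed. That of ligases was 0.16, and 0.12 with TMM, 0.10 with the length trend removed and 0.0298 with length and GC removed. That of deubiquitinases was 0.17, and 0.25 with the length trend removed. Leaving out 1 library gave medians of 0.13 to 0.21 for proteasome genes, 0.14 to 0.18 for ligases, 0.17 to 0.31 for conjugating enzymes and 0.14 to 0.20 for deubiquitinases.

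Directions of single members held in 414 of 420 refits. The exceptions were Herc2 (0.0247) and Usp9x (0.0123) with the length trend removed, and Usp9x (0.16), Ube4a (0.10), Rnf11 (0.14) and Rnf114 (-0.026) with length and GC removed. The cause was not tested. The labels tie no replicate number to a shared litter or day. Deviations of same-numbered libraries had correlations of 0.25, 0.25, -0.10 and 0.21 for numbers 1 to 4. Propionate replicate 3 correlated best with control replicate 1, at 0.385. A pairing was taken only where every number exceeded 0.1, so the numbers were not used to pair libraries. With the replicate block 13 members were called higher and 8 lower, beside 87.1% of all genes tested, and the medians were 0.18 for proteasome genes, 0.16 for ligases, 0.25 for conjugating enzymes and 0.17 for deubiquitinases. Counts under 100 in every library limit Trim6, Trim34b, Rnf212b and Usp50.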

Other observations

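Chromosome 7 held 8 of the 28 members (28.6%), beside 8.48% of all genes tested. These were Trim28, Ube2s, Psmd8, Herc2, Trim6, Trim34b, Rnf40 and Fbxl19. Rnf40 and Fbxl19 lie 139744 bases apart and were both higher with propionate, while the neighbours Trim6 and Trim34b were both lower. The chromosome was picked out after the positions were seen, and no test was made. In GENCODE M21, 10 members share exonic bases with another gene, 8 of them mainly on the opposite strand. For Rnf212b 10.6% of exonic bases overlap Homez. For Ube2s 3.56% overlap Rpl28 on the opposite strand. Rpl28 is itself among the genes analysed, with a log2 fold change of 0.25 and an adjusted p of 0.172 by the authors' deposited table. Whether its reads add to the Ube2s counts was not tested.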
